A study of Ovis aries with 6 samples.

Results

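Type I interferon-stimulated genes were followed in sheep mitral valve endothelial cells, the cells that cover the leaflets of the mitral valve. The genes were a list of 37 symbols of antiviral effectors, RNA sensors, parts of the transcription factor ISGF3 and genes of ISG15 conjugation, and they were taken by symbol from a table of 18865 gene rows. A row was found for 34 of the 37, and 31 of these passed the filter on low counts that left 14326 genes tested. The cultures were exposed for 24 h to ovine plasma, taken from naive animals in 3 libraries and from animals with a myocardial infarction in the other 3 (here called post-MI), and no other treatment or genotype is given. Whether replicates differ in culture, cell donor or plasma donor is not stated in the labels. Each p-value therefore reflects only how far these 3 libraries spread, and that spread may be technical.

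Type I interferons bind the receptor IFNAR1-IFNAR2, whose kinases JAK1 and TYK2 phosphorylate STAT proteins, STAT2 among them. STAT2 and IRF9 are parts of ISGF3, which enters the nucleus and switches on genes that sense viral RNA, block translation or assembly of viruses, and conjugate the ubiquitin-like protein ISG15 to other proteins. Endothelial cells carry the receptor and respond to interferon with this set of genes.

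Every one of the 31 tested genes had its highest level of the 6 libraries in post-MI replicate 3. Over all genes tested, 13.3% were highest in that library. The level there was between 1.48 and 37.8 times that of the next library, with MX2, ISG15 and RSAD2 at the upper end and STAT2, TRIM25 and IRF9 at the lower end. For 22 of the 31 genes the levels of post-MI replicates 1 and 2 both lay inside the range of the naive libraries, as they did for 33.6% of all genes tested. With all 6 libraries 31 of 31 log2 fold changes (post-MI minus naive) were positive, with a median of 1.21, and without post-MI replicate 3 the count was 16 of 31 and the median 0.01. Over all genes tested the medians were -0.01 and -0.02. In bulk RNA more cells with a transcript and more of it per cell cannot be told apart.

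No gene of the list passed the quasi-likelihood test of edgeR, adjusted by Benjamini-Hochberg over all genes tested, with or without post-MI replicate 3. The test called 0% of all genes with the 6 libraries and 0% without that library. The adjusted p of the 31 genes ran from 0.555 to 0.892 with all libraries, and from 0.484 to 0.995 without post-MI replicate 3. At an unadjusted p under 0.05, 3 of the 31 were higher with post-MI plasma (MX2, IFIT3 and UBA7), beside 4.61% of all genes tested, and 0 were lower. Over all genes 660 were higher and 584 lower at that unadjusted p, and without post-MI replicate 3 748 and 661. limma-voom called 0 of the 31 and 0 of all genes tested. DESeq2 also called 0 of the 31, beside 1.04% of all genes called higher, and gave no p for 13 of the 31, since it withholds a p where the counts of 1 library stand out by Cook's distance. It withheld a p from 47 genes of all those tested, the 13 included. The median standard error (SE) of the log2 fold changes was 0.75 for the 31 genes and 0.213 over all genes tested.

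**Figure D1:**
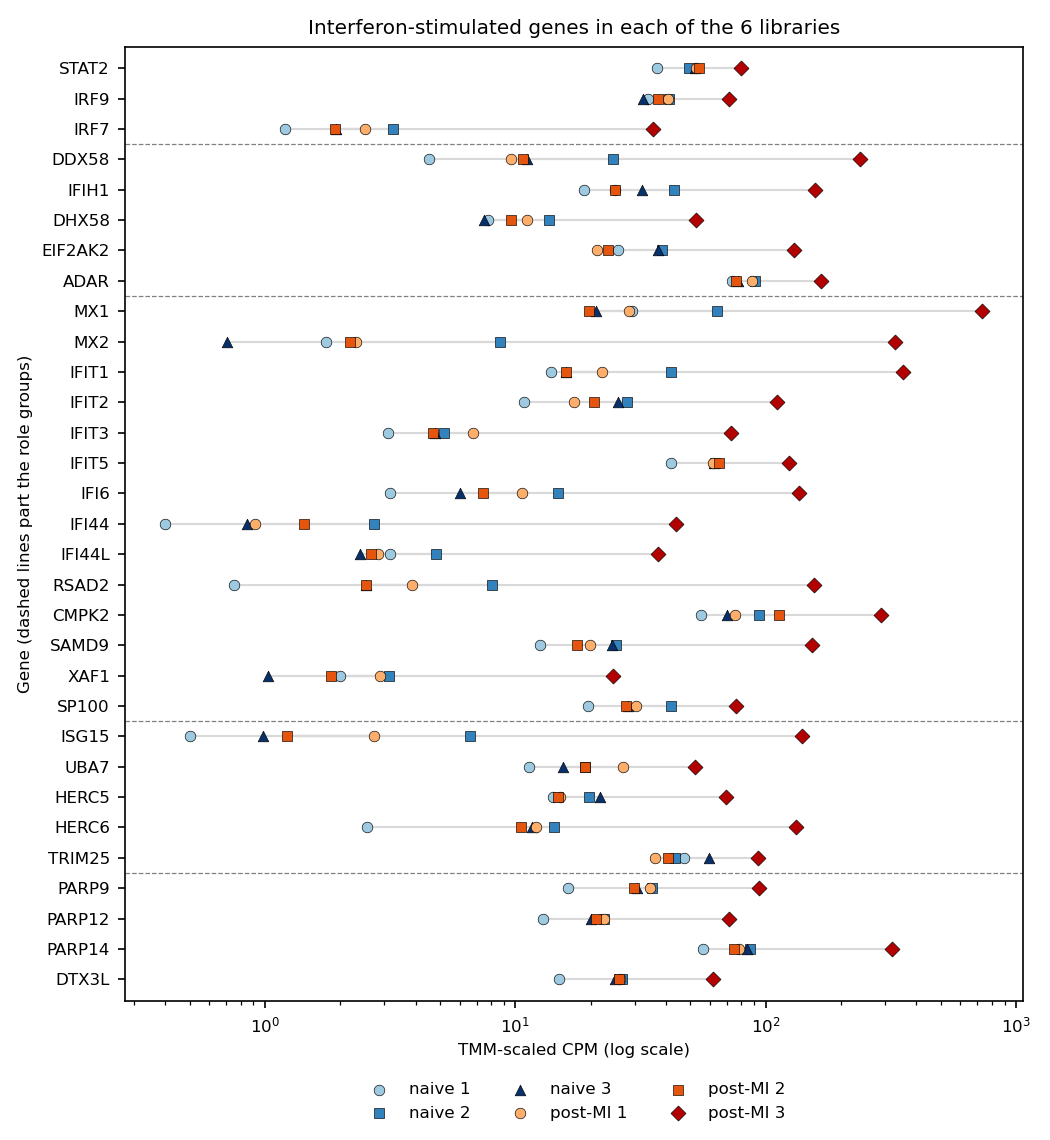
Levels of the 31 tested interferon-stimulated genes in TMM-scaled CPM (log axis), 1 point per library, with dashed lines between the role groups. The diamonds of post-MI replicate 3 lie to the right of all other points in every row, and post-MI replicates 1 and 2 lie among the naive libraries in most rows.

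Levels are given as CPM, a gene's counts scaled to a common library total, with TMM scaling, which corrects the totals for composition. Values are in the order of replicates 1, 2 and 3, the naive libraries before the post-MI libraries. The transcription factors differed among themselves. STAT2, the ISGF3 subunit that carries the activation domain, was at 36.97, 49.4 and 52.0 CPM in the naive libraries and at 52.6, 54.0 and 79.6 CPM in the post-MI libraries. IRF9, the DNA-binding subunit, was at 33.9, 41.3 and 32.3 CPM under naive plasma and at 40.6, 37.2 and 71.4 CPM under post-MI plasma. Both were expressed in every library, and post-MI replicate 3 was 1.48 and 1.73 times above the next library. IRF7, which drives further interferon production and is itself an interferon target, was at 1.20, 3.24 and 1.93 CPM under naive plasma, at 2.52 and 1.91 CPM in post-MI replicates 1 and 2 and at 35.5 CPM in post-MI replicate 3. IRF7 was thus low in 5 libraries and 10.95 times above the next library in 1. The log2 fold changes were 0.43 ± 0.22 for STAT2, 0.47 ± 0.27 for IRF9 and 2.66 ± 1.14 for IRF7 (SE, n = 3 each; edgeR adjusted p = 0.582, 0.604 and 0.566). Without post-MI replicate 3 these were 0.21 ± 0.19, 0.12 ± 0.17 and 0.07 ± 0.49.

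Among the sensors of nucleic acids, DDX58 (RIG-I), a helicase that binds viral RNA ends, spread most. It was at 4.50, 24.5 and 11.1 CPM in the naive libraries and at 9.59, 10.7 and 239 CPM in the post-MI libraries. IFIH1 (MDA5), a helicase that binds long double-stranded RNA, was at 18.9, 43.2 and 32.1 CPM and at 25.0, 24.9 and 157 CPM. For both genes naive replicate 2 was the second highest library, above post-MI replicates 1 and 2. DHX58 (LGP2), the regulator of the other two, was at 7.75, 13.6 and 7.51 CPM under naive and at 11.1, 9.63 and 52.7 CPM under post-MI plasma. EIF2AK2 (PKR), a kinase that halts translation when it binds double-stranded RNA, was at 25.8, 38.6 and 37.2 CPM under naive and at 21.2, 23.4 and 130 CPM under post-MI plasma. The 2 lowest values of EIF2AK2 were those of post-MI replicates 1 and 2. Without post-MI replicate 3 its log2 fold change turned from 0.78 ± 0.69 to -0.60 ± 0.22 (SE). EIF2AK2 was the only gene of the 31 at an unadjusted p under 0.05 in that comparison (edgeR's quasi-likelihood test, adjusted p = 0.484). Over all 14460 genes tested there, 661 were lower and 748 higher at that unadjusted p. ADAR, which edits adenosines in double-stranded RNA and has an interferon-inducible form, was at 73.6, 91.1 and 77.7 CPM and at 88.3, 76.0 and 166 CPM, with the other 5 libraries close together. The log2 fold change of DDX58 was 2.70 ± 1.32 with all libraries and -0.39 ± 0.65 without post-MI replicate 3 (SE).

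Among the antiviral effectors, MX2 had the largest lead. MX2, a dynamin-like GTPase that blocks nuclear entry of viral genomes, was at 1.75, 8.68 and 0.705 CPM under naive plasma and at 2.30, 2.19 and 328 CPM under post-MI plasma. Its gap between the highest and the next library, 37.8 times, ranked 1 among all genes tested. MX1, the GTPase that traps viral nucleocapsids, was at 29.3, 64.2 and 21.1 CPM and at 28.5, 19.7 and 733 CPM. RSAD2 (viperin), a radical SAM enzyme that makes a chain-terminating nucleotide, was at 0.7504, 8.045 and 2.54 CPM under naive and at 3.86, 2.53 and 156 CPM under post-MI plasma. In these 3 genes naive replicate 2 exceeded every library but post-MI replicate 3. The log2 fold changes were 4.92 ± 2.07 for MX2, 2.77 ± 1.35 for MX1 and 3.85 ± 1.67 for RSAD2 (SE; edgeR adjusted p = 0.566, 0.572 and 0.566), and without post-MI replicate 3 they were -0.71 ± 0.999, -0.66 ± 0.49 and -0.23 ± 0.89.

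The 4 IFIT genes did not share 1 size of difference. IFIT1, which recognises caps that lack methyl groups, was at 13.9, 41.8 and 15.9 CPM under naive and at 22.3, 15.9 and 353 CPM under post-MI plasma. IFIT3, its partner, was at 3.101, 5.21 and 4.79 CPM and at 6.80, 4.71 and 72.7 CPM. IFIT2 was at 10.8, 27.9 and 25.7 CPM and at 17.1, 20.7 and 112 CPM. The highest library stood 8.45, 10.7 and 3.996 times above the next for IFIT1, IFIT3 and IFIT2. IFIT5 was at 41.8, 62.8 and 62.2 CPM under naive and at 61.6, 65.3 and 124 CPM under post-MI plasma, 1.89 times above the next library. IFIT genes, like MX1 and MX2, are related in sequence, and reads shared between such copies make these rows less certain.

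IFI6, a mitochondrial and endoplasmic reticulum protein that restrains flaviviruses, was at 3.15, 14.8 and 6.012 CPM under naive plasma and at 10.7, 7.44 and 136 CPM under post-MI plasma. IFI44 was at 0.400, 2.72 and 0.846 CPM and at 0.911, 1.43 and 43.8 CPM, and its relative IFI44L at 3.15, 4.804 and 2.40 CPM and at 2.84, 2.66 and 37.05 CPM. SAMD9, a cytoplasmic restriction factor of poxviruses, was at 12.6, 25.4 and 24.4 CPM and at 19.9, 17.6 and 153 CPM. These 4 genes had post-MI replicates 1 and 2 inside the range of the naive libraries. XAF1, a pro-apoptotic antagonist of XIAP, was at 2.001, 3.13 and 1.03 CPM under naive and at 2.89, 1.84 and 24.5 CPM under post-MI plasma. CMPK2, a mitochondrial nucleotide kinase, was at 55.3, 94.2 and 70.0 CPM and at 75.2, 114 and 288 CPM. SP100, a scaffold of nuclear bodies, was at 19.5, 41.9 and 28.1 CPM and at 30.4, 27.6 and 76.3 CPM. XAF1 and SP100 had naive replicate 2 as the second highest library, while CMPK2 had post-MI replicate 2 there. The exonuclease ISG20 had few reads, with 1, 1 and 7 counts in the naive and 1, 1 and 14 counts in the post-MI libraries, and was not tested.

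ISG15 is attached to proteins by the E1 enzyme UBA7 and the HERC ligases. ISG15 was at 0.5002, 6.60 and 0.986 CPM under naive plasma and at 2.73, 1.23 and 140 CPM under post-MI plasma. UBA7 was at 11.4, 18.9 and 15.5 CPM and at 27.0, 18.98 and 51.99 CPM. ISG15 was thus 21.2 times and UBA7 1.93 times above the next library in post-MI replicate 3. HERC5, the main ligase in human cells, was at 14.2, 19.6 and 21.8 CPM under naive and at 15.1, 14.8 and 69.5 CPM under post-MI plasma. HERC6, the main ligase in mice, was at 2.55, 14.3 and 11.7 CPM and at 12.1, 10.5 and 132 CPM. TRIM25, a ubiquitin ligase that helps RIG-I signal and also accepts ISG15, was at 47.2, 43.5 and 59.5 CPM and at 36.2, 40.8 and 93.3 CPM. TRIM25 had the smallest log2 fold change of the 31 with all libraries, 0.18 ± 0.37, and gave -0.38 ± 0.19 without post-MI replicate 3 (SE). The log2 fold change of ISG15 was 4.18 ± 1.85, and -0.42 ± 1.09 without post-MI replicate 3 (SE; edgeR adjusted p = 0.566 and 0.917).

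UBA7 had the largest log2 fold change of the 31 once post-MI replicate 3 was left out, 0.60 ± 0.27 (SE; edgeR adjusted p = 0.535), beside 1.10 ± 0.38 with all libraries (SE; edgeR adjusted p = 0.555). UBA7 had a mean of 15.3 ± 3.79 CPM over the naive and of 32.7 ± 17.2 CPM over the post-MI libraries (SD over 3 libraries). UBA7 and STAT2 were the 2 genes of the 31 whose levels did not overlap between the groups, beside 8.33% of all genes tested that were higher without overlap. The gaps were narrow: UBA7 was at 18.93 CPM in naive replicate 2 and 18.98 CPM in post-MI replicate 2, and with plain library totals in place of TMM 0 of the 31 did not overlap. With 1 library left out, groups of unequal size separate more often. Without naive replicate 2 the count was 12 of the 31, beside 15% of all genes tested. It was 4 without post-MI replicate 1, beside 11.4%, and 4 without post-MI replicate 2, beside 10.3%. It was 2 without naive replicate 1, beside 12.1%, and 2 without naive replicate 3, beside 14.1%. Without post-MI replicate 3, 2 of the 31 were higher without overlap, beside 16% of all genes tested. In that setting 2 others, EIF2AK2 and TRIM25, were lower without overlap, also beside 16%.

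PARP9 and DTX3L form a complex that ubiquitinates histones and viral proteins, and PARP12 and PARP14 are mono-ADP-ribosyltransferases. PARP9 was at 16.2, 35.1 and 30.6 CPM under naive and at 34.4, 29.7 and 94.4 CPM under post-MI plasma. DTX3L was at 15.01, 26.7 and 25.1 CPM and at 26.1, 25.9 and 61.8 CPM. The partners ran in parallel, with naive replicate 1 lowest and a highest level 2.69 and 2.32 times above the next library. PARP12 was at 12.9, 22.6 and 20.1 CPM under naive and at 22.6, 21.0 and 71.7 CPM under post-MI plasma. PARP14 was at 56.4, 86.6 and 84.5 CPM and at 78.0, 74.4 and 320 CPM. The log2 fold changes of PARP9, DTX3L, PARP12 and PARP14 lay between 0.77 and 1.05 with all libraries and between 0.01 and 0.24 without post-MI replicate 3, all positive.

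The 2 secreted or membrane ligands of the list were not tested for want of counts. The apoptosis ligand TNFSF10 (TRAIL) had 0, 2 and 0 counts in the naive libraries and 2, 1 and 53 counts in the post-MI libraries. The chemokine CXCL10 had 0, 3 and 0 counts under naive and 2, 0 and 8 counts with post-MI plasma. For both genes post-MI replicate 3 alone lay clearly above a floor of 3 counts, which equals 0.141 to 0.205 CPM in these libraries and covers counting error alone.

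ZBP1, BST2 and USP18 had no row under these symbols, and ZBP1 was not analysed here. The gene ID of LOC101103965 is that of USP18, which removes ISG15 from proteins and damps the receptor, in RefSeq. That row was at 31.9, 43.9 and 20.85 CPM under naive and at 39.2, 26.8 and 87.7 CPM under post-MI plasma. BST-2A and BST-2B, the sheep copies of the virus tether BST2, were at 23.4 and 21.9 CPM in post-MI replicate 3 and at no more than 2.37 and 3.99 CPM in the other 5 libraries. These 3 rows were picked by name, are not counted among the 31, and were also highest in post-MI replicate 3. Rows of near-identical copies such as BST-2A and BST-2B could share reads.

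**Figure D2:**
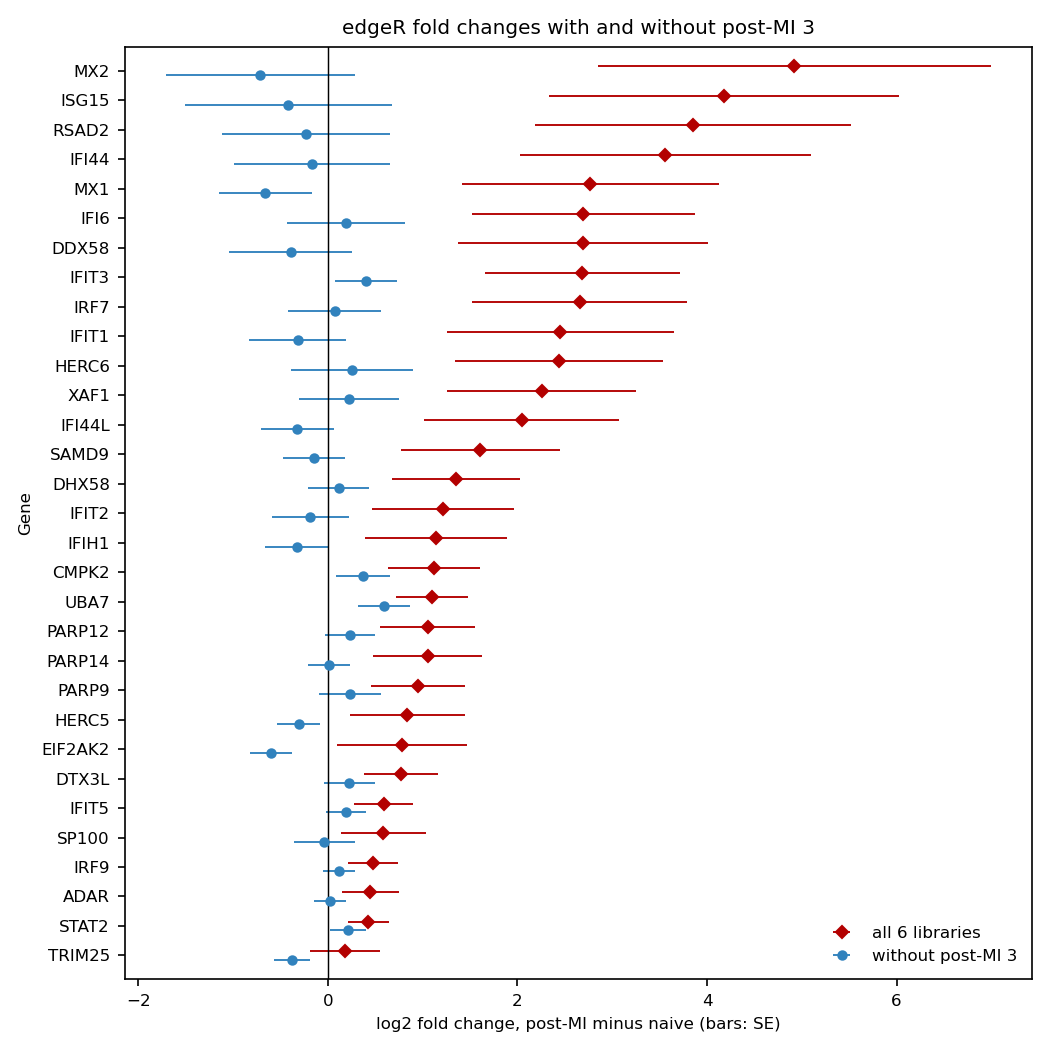
Log2 fold changes (post-MI minus naive, edgeR) of the 31 tested genes with bars of 1 SE, for all 6 libraries (diamonds) and without post-MI replicate 3 (circles). All 31 diamonds lie above 0, from 0.18 to 4.92, while the circles lie between -0.71 and 0.60 with 16 above 0.

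Post-MI replicate 3 exceeded the next library by over 1 log2 unit for 24 of the 31 genes, beside 0.621% of all genes tested, which came to 89 genes. The median distance from post-MI replicate 3 to the next library was 1.95 for the 31 genes and -0.32 over all genes tested, both in log2 CPM with a prior count of 2. Such a lead was held over all genes tested by 288 genes in naive replicate 1, 43 in naive replicate 3 and at most 14 in each of the remaining 3 libraries. Of the 50 tested genes with the largest distance 19 were among the 31, and of the 100 with the largest distance 26. The 31 passed the count filter without post-MI replicate 3 as well, so their presence among the genes tested did not rest on that library.

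**Figure D3:**
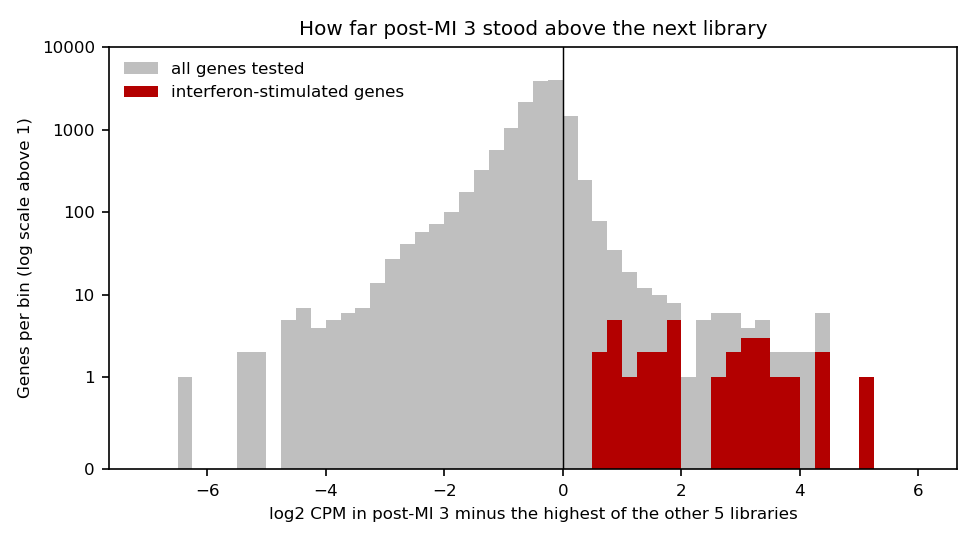
Distribution of the distance between post-MI replicate 3 and the highest of the other 5 libraries (log2 CPM) for the 14326 genes tested (grey) and the 31 interferon-stimulated genes (red), in bins of 0.25, with a count axis that is logarithmic above 1. The red bars lie between 0.56 and 5.22, to the right of the bulk of all genes, whose median is -0.32.

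Among the genes tested, the 10 outside the list with the largest distance were CCL5 and 9 rows with provisional locus names. EPSTI1, another interferon-stimulated gene, did not pass the count filter and was not ranked. It had 7, 11 and 7 counts in the naive and 8, 7 and 299 counts in the post-MI libraries. Its distance was 4.54, beside 4.49 for LOC101112122. CCL5, a chemokine induced by interferon and by NF-kB, was at 0.650, 1.505 and 0.0470 CPM under naive and at 1.07, 0.478 and 28.0 CPM under post-MI plasma. The highest of the 9 was LOC105602911, at 388.5 CPM in post-MI replicate 3 and between 4.50 and 40.3 CPM in the other 5 libraries. The top of the 9 by distance was LOC101112122, at 213 CPM and between 0.5002 and 9.38 CPM. Like MX2, both of these rows had naive replicate 2 as the second highest library. Of the 50 tested genes with the largest distance 22 had a provisional locus name.

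The other 5 libraries were not level either. Among them naive replicate 2 was highest for 23 of the 31 genes, beside 14.1% of all genes tested, and naive replicate 1 was lowest for 23 of the 31, beside 30.6%. The mean over the 31 genes was 3.202, 4.405 and 3.71 log2 CPM in the naive libraries and 3.93, 3.78 and 6.78 log2 CPM in the post-MI libraries. Post-MI replicates 1 and 2 thus lay between naive replicates 1 and 2. Naive replicate 2 exceeded naive replicate 1 for 30 of the 31 genes, with TRIM25 as the exception, and for 7159 of the 14326 genes tested. The median difference between these 2 libraries was 0.83 over the 31.

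Genes that differed more between naive replicates 2 and 1 also stood higher in post-MI replicate 3. Over the 31 genes the difference of naive replicate 2 minus naive replicate 1 had a Spearman rho of 0.76 and a Pearson r of 0.79 with the difference of post-MI replicate 3 minus the mean of the remaining 3 libraries. Over all 14326 genes tested the rho was 0.09. Both are descriptions across genes, which share the libraries and are not independent replicates, although the 2 differences have no library in common. ISG15 and RSAD2 had the 2 largest values of the first difference and were among the 3 largest of the second, with MX2, while TRIM25, IRF9, ADAR and STAT2 had the 4 smallest values of the first.

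**Figure D4:**
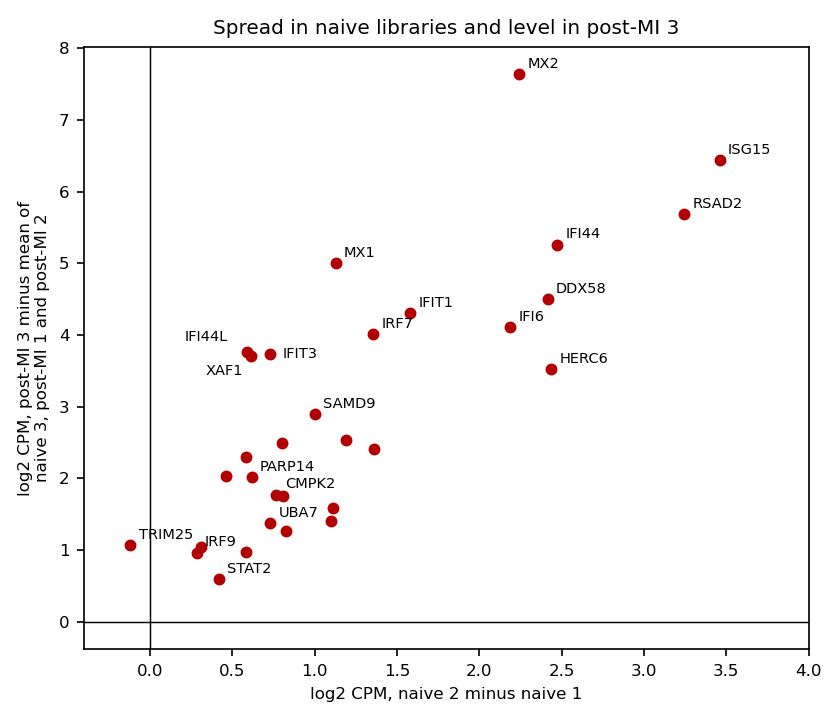
For each of the 31 genes, the log2 CPM difference between naive replicates 2 and 1 (horizontal) and between post-MI replicate 3 and the mean of naive replicate 3 and post-MI replicates 1 and 2 (vertical), with 1 point per gene. Points climb from TRIM25, IRF9 and STAT2 near the origin to RSAD2 and ISG15 at the upper right, with MX2 highest, and the Spearman rho is 0.76.

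Several of the 31 genes are neighbours on the chromosome. In the gene order of RefSeq (assembly ARS-UI_Ramb_v3.0, used for order alone since the files name the build Oar_v3.1), 28 of the 31 were found by symbol and formed 9 adjacent pairs of coding genes. Neighbours did not share 1 size of distance: RSAD2 stood 4.25 above the next library on the log2 scale and the adjacent CMPK2 1.34, HERC6 3.197 and HERC5 1.67, and MX2 5.22 and MX1 3.51. IFIT1 at 3.08 lay beside IFIT5 at 0.92. PARP9 and DTX3L were alike, at 1.42 and 1.21. Directly beside a member lay 23 tested genes outside the list. Of the 23, 2 stood more than 1 above the next library, beside 0.621% of all genes tested. They were REC8 beside IRF9 at 1.13 and AGRN beside ISG15 at 1.10. The median over the 23 was -0.35.

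The upstream parts of the pathway were tested as lists of other genes, and edgeR called 0 genes in each of them, with all libraries and without post-MI replicate 3. At an unadjusted p under 0.05 it gave 0 of 10 receptors and kinases, 1 of 17 genes of nucleic acid sensing, and 0 of 7 feedback inhibitors. Over all 14326 genes tested 660 were higher and 584 lower at that p, so in lists of this size such counts are near that share. The receptor genes IFNAR1 and IFNAR2 were present in every library, IFNAR1 at 78.7 to 82.9 CPM over all but post-MI replicate 3 and at 82.2 CPM there, and IFNAR2 at 5.65 to 8.74 CPM and at 10.5 CPM. The DNA sensor CGAS was at 2.40 to 3.18 CPM in the 5 other libraries and at 5.94 CPM in post-MI replicate 3. The feedback inhibitors SOCS3 and SOCS1 were highest in naive replicate 1, SOCS3 at 23.8 CPM there and at 5.73 to 8.74 CPM elsewhere. SOCS1 was at 7.003, 3.36 and 1.88 CPM and at 3.00, 2.19 and 5.48 CPM. No gene of these 3 lists was over 1 log2 unit higher in post-MI replicate 3 than in the next library. Of 10 interferon ligand genes 3 had a row: IFNK and IFNG had 0 counts in all 6 libraries, which allows up to 0.205 CPM in the shallowest library, and IFNE had 1 count, in post-MI replicate 3.

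Of 27 further interferon-stimulated genes tested, 24 were highest in post-MI replicate 3 and 8 by over 1 log2 unit, beside the 13.3% and 0.621% of all genes. RTP4, which assists receptor transport, was at 52.3 CPM there and at 2.02 to 6.95 CPM in the other 5 libraries. RNF213, a large ubiquitin ligase active against microbes, was at 453 CPM and at 49.9 to 82.5 CPM, and IFITM3, which blocks viral fusion, at 212.5 CPM and at 49.5 to 64.4 CPM. IFITM3 was matched by its RefSeq gene ID to the row LOC101104700, and IFITM genes are near-identical copies that could share reads. The antibody receptor TRIM21 was at 33.1 CPM and at 9.56 to 12.5 CPM. The list median of log2 fold changes was 0.31 with all libraries and -0.07 without post-MI replicate 3. At an unadjusted p under 0.05 edgeR gave 2 of the 27 higher and 1 lower, beside 660 and 584 of the 14326 genes tested.

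Of 6 tested genes known mainly as targets of interferon gamma, 3 were highest in post-MI replicate 3. The guanylate-binding protein GBP6 was the one with a lead of over 1 log2 unit, at 11.2 CPM there and at 1.16 to 3.95 CPM in the other 5 libraries. GBP5, of the same family, was at 5.45, 12.1 and 8.69 CPM under naive and at 26.9, 20.8 and 37.8 CPM under post-MI plasma, so that the groups did not overlap. Its log2 fold change was 1.71 ± 0.34, and 1.45 without post-MI replicate 3 (SE; edgeR adjusted p = 0.3 with all libraries). IRF1, a transcription factor induced by interferons, was at 17.0, 24.7 and 15.6 CPM and at 37.7, 27.5 and 54.5 CPM, also without overlap (log2 fold change 1.07 ± 0.29, edgeR adjusted p = 0.460). Without post-MI replicate 3 the log2 fold change of IRF1 was 0.78 (edgeR adjusted p = 0.442). These 2 of the 6 tested genes of that list were higher at an unadjusted p under 0.05 by edgeR, beside 4.61% of all genes tested. The same 2 were the ones higher without overlap, beside 8.33% of all genes tested. The list held 11 rows, of which CIITA and CXCL9 had 0 counts in all libraries. WARS, another target, was at 450.5, 295.5 and 147.8 CPM and at 267.7, 168.1 and 301.9 CPM, with overlap.

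Inflammatory genes under NF-kB were split by library. The adhesion receptor SELE was at 4.75, 1.91 and 7.37 CPM under naive and at 3.16, 3.35 and 40.45 CPM under post-MI plasma, highest in post-MI replicate 3 as the interferon-stimulated genes were. The cytokines CXCL8 and IL6 were highest in naive replicate 1, at 648.5 and 1102 CPM. They were second highest in post-MI replicate 3, at 96.4 and 195.5 CPM. CXCL8 was at 3.14 to 38.75 CPM and IL6 at 73.04 to 139.5 CPM in the remaining libraries. The mean over the tested genes of the list was 4.64, 3.81 and 3.94 log2 CPM in the naive libraries. It was 3.90, 3.40 and 5.33 log2 CPM in the post-MI libraries. Of the 15 tested genes of that list 7 were highest in post-MI replicate 3 and 2 of them, CCL5 and SELE, by over 1 log2 unit. edgeR called 0 of the 15, with 1 higher at an unadjusted p under 0.05, beside 4.61% of all genes tested.

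**Figure D5:**
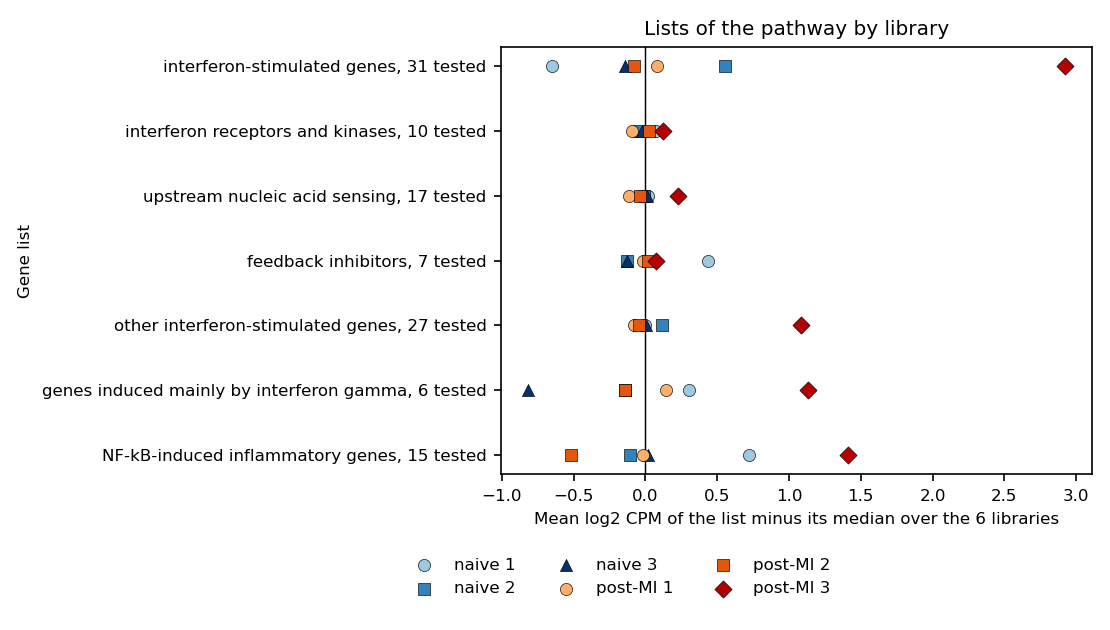
Mean log2 CPM of each gene list in each library, minus the median of that list over the 6 libraries. Post-MI replicate 3 is set apart most for the 31 interferon-stimulated genes, at a mean of 6.78 against 3.202 to 4.405 log2 CPM elsewhere, while the receptors and kinases and the sensing genes hold all libraries within a narrow band and the feedback inhibitors are highest in naive replicate 1.

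Total counts ran from 14858472 to 20672794 per library, and post-MI replicate 3, at 17403288, was within that range. The endothelial markers PECAM1 and CDH5 were at 888 to 1407 CPM and at 864 to 1383 CPM over the 6 libraries. The 12 endothelial markers had a mean of 6.14 log2 CPM in post-MI replicate 3, 6.87 and 7.01 in post-MI replicates 1 and 2, and 5.88 to 6.18 in the naive libraries. Of 18 leukocyte markers 16 had a row and 7 were tested. Their summed level was 41.4 to 59.7 CPM in the naive and 43.4 to 48.0 CPM in the post-MI libraries, with 48.0 CPM in post-MI replicate 3, and MS4A1 and S100A8 were at 0 in all 6. PTPRC (CD45), which all leukocytes carry, had 4, 6 and 3 counts under naive and 12, 12 and 23 counts with post-MI plasma, without overlap. Markers of fibroblasts and valve interstitial cells (9 of 9 tested) summed to 10960 to 20540 CPM in the naive and 14040 to 18660 CPM in the post-MI libraries. Those of smooth muscle cells and pericytes (7 of 9 tested, RGS5 at 0) summed to 997 to 5201 CPM and to 4708 to 6385 CPM, with the highest sum in post-MI replicate 3. The part of these markers in the level of the interferon-stimulated genes was not tested.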

How the data were processed

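Messenger RNA from sheep mitral valve endothelial cells was sequenced as paired reads of 150 bp from stranded libraries, per the labels' protocols. The whole-series table deposited by the authors holds raw counts per gene symbol. Per the submitters' processing notes the build was Oar_v3.1 and the tools included featureCounts 2.0.0, STAR 2.5.2b, DESeq2 1.26.0 and SAMtools 1.9. Annotation and strand setting: not given in the sources used here. Per-sample files deposited by the authors hold a signal equal to these counts over 1 factor per library (100% of non-zero values within 0.01%), and were used for that check alone. Overlapping or antisense genes and near-identical copies could share reads, so such rows are uncertain.

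Groups and replicate numbers came from the sample titles. In R 4.3.3, edgeR 4.0.16 kept genes by filterByExpr (minimum count 10, minimum total 15), scaled by TMM and ran its quasi-likelihood test with Benjamini-Hochberg adjustment over 14326 genes at 0.05. Each SE was obtained by dividing the size of the log2 fold change by the root of its F statistic. Log2 CPM used a prior count of 2. Alternatives were DESeq2 1.42.0, limma-voom (limma 3.58.1), DESeq2 size factors, 2 other filters, a replicate block and each library left out. The scripts were tested on simulated data with known changes. There 23.3% of the genes called by DESeq2 were false calls, beside 5.5% for edgeR and 5.18% for limma-voom.

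The genes and the lists beside them were chosen with earlier results of these data known. Each gene of the list is accounted for. From each other list at most 4 tested genes were named by the distance of the highest library to the next. Beside these, the receptor genes IFNAR1 and IFNAR2, the ligand genes and the markers PTPRC, PECAM1 and CDH5 were picked by role. EPSTI1, VWF and CLDN5 were picked for their values. All of these picks were made after the values were seen. Genes outside the list were the 10 tested genes with the largest distance from post-MI replicate 3 to the next library. Of all rows 87.7% were found in RefSeq, by symbol or gene ID. No promoter sequences were used here, so the planned motif comparison was not run. The values of 1 gene of the receptor and kinase list are not reported here.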

Additional observations from a re-analysis of the deposited data

How the results depend on the processing

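The signs of the 31 genes were the same as in the edgeR fit, and none was called, under DESeq2 (no p for 13), limma-voom, DESeq2 size factors, the table without a filter, a minimum of 1 CPM in 3 libraries and the replicate block, and without each library other than post-MI replicate 3. The median log2 fold change of the list was 1.21 and ran from 0.01 (without post-MI replicate 3) to 1.625 with single libraries left out. Leaving out post-MI replicate 3 turned the direction of 15 genes, whose lowest and highest log2 fold changes with single libraries left out were -0.39 and 3.465 for DDX58, -0.33 and 1.54 for IFIH1, -0.60 and 1.18 for EIF2AK2, -0.66 and 3.37 for MX1, -0.71 and 6.498 for MX2, -0.32 and 3.13 for IFIT1, -0.18 and 1.625 for IFIT2, -0.16 and 4.61 for IFI44, -0.32 and 2.53 for IFI44L, -0.23 and 5.02 for RSAD2, -0.15 and 2.05 for SAMD9, -0.038 and 0.91 for SP100, -0.42 and 5.99 for ISG15, -0.31 and 1.19 for HERC5, and -0.38 and 0.42 for TRIM25. Over all genes DESeq2 called 215, where edgeR called 0 and the fit with a replicate block called 0. Same-numbered libraries of the groups had deviations correlated at 0.15, -0.11 and 0.09, so the numbers were not taken to pair them; with the replicate block 0 of the 31 were called and the median was 0.89. Under the replicate block and under limma-voom all 31 log2 fold changes were smaller. In each setting the fold change itself, off the log2 scale, moved by more than 1.5 times for 14 genes. The log2 fold change of MX2 went from 4.92 to 1.41 and 2.54, that of MX1 from 2.77 to 0.69 and 1.14, and that of ISG15 from 4.18 to 2.48 and 2.52. Genes of the list without overlap between groups were 2 with TMM and 0 with plain library totals, and 2 to 12 higher with single libraries left out (10.3% to 16% of all genes tested), an alternative added after seeing the data, with 2 lower without post-MI replicate 3. A comparison of promoter motifs was planned and not run.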
